A study of Mus musculus with 18 samples.

Results

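Myosin heavy chain is the motor protein of the thick filament of muscle, and the gene that a fibre uses sets much of its contraction speed. The heavy chains of skeletal muscle described here were 7 genes, Myh1, Myh2, Myh3, Myh4, Myh7, Myh8, and Myh13, of 35150 genes in the table. They were chosen by name, and the values of the transcripts of each gene were summed. RNA was measured in 18 punches of whisker pad, a mixed tissue of skin and muscle, from both sides of 9 mice. On the right side 2 branches of the facial nerve, the buccal and the superior marginal, had been cut (denervated), and on the left side the skin was incised and closed with the nerve spared (sham). The mice were sampled 1, 3, or 7 days later, 3 mice a day, which makes 6 groups of 3 samples. Every mouse was operated on both sides, the lesion was always on the right, and lesion and side cannot be told apart. The labels give no strain or age. The paper gives an age range for the sequenced mice, and states the use of males and females for the study as a whole.

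Adult mouse fast muscle uses Myh4 (the heavy chain of type IIb fibres), Myh1 (IIx), and Myh2 (IIa), in falling order of speed. Myh7 is the heavy chain of slow fibres and of the heart. Myh3 and Myh8 are the embryonic and perinatal heavy chains, which developing and regenerating fibres make and which denervated adult fibres can make again. Myh13 is the heavy chain of extraocular and laryngeal muscle. All but Myh7 lie in 1 cluster, and nerve activity is among the known influences on which of them a fibre makes.

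The cluster is on the plus strand of chromosome 11 of build GRCm38, in the order Myh3 (chr11:67078300-67102291), Myh2 (chr11:67171027-67197517), Myh1 (chr11:67200052-67224575), Myh4 (chr11:67238029-67260446), Myh8 (chr11:67277124-67308634), and Myh13 (chr11:67321658-67371586). Myh7 lies on the minus strand of chromosome 14 (chr14:54970684-54994626). The 250 bases before the RefSeq start site (build GRCm38.p6) of the neighbours Myh2, Myh1, Myh4, and Myh8 are printed because 3 of them make up the adult fast set, whose log2 levels had a Pearson r of 0.76 to 0.88 for each pair over the samples. Capitals mark the longest run of bases that all 4 hold:
Myh2, chr11:67170777-67171026, plus strand: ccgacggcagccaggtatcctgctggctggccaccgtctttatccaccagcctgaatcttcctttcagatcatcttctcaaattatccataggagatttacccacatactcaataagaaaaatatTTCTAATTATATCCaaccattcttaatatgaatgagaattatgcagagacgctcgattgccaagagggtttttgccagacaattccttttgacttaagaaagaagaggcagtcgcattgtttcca
Myh1, chr11:67199852-67200101, plus strand: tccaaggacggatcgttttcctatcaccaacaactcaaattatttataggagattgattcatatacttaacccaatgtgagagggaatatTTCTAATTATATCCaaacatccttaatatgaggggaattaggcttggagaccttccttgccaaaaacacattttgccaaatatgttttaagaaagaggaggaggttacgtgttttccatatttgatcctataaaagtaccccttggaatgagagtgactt
Myh4, chr11:67237562-67237811, plus strand: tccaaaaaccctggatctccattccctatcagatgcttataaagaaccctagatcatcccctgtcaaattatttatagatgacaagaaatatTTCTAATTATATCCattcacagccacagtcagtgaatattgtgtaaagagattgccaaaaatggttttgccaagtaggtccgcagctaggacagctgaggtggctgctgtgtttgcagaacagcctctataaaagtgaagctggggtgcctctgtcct
Myh8, chr11:67276874-67277123, plus strand: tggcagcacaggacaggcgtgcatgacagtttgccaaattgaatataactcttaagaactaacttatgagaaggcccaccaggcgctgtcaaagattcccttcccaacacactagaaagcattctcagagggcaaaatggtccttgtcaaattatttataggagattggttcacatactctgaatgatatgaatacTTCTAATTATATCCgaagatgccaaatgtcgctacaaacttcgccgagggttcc
The run has 14 bases. It begins 125 bases before the start site in Myh2, 160 in Myh1, 158 in Myh4, and 54 in Myh8. Searched on both strands, it was in 4 of 32851 RefSeq promoters of the same length (0.0122%), and these were the promoters of Myh1, Myh2, Myh4, and Myh8. In Myh1, Myh2, and Myh4 it is part of a shared run of 20 bases, which 3 of 32851 promoters held (0.00913%). Another run of 15 bases, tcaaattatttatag, which does not overlap the first, was in the promoters of Myh1, Myh4, and Myh8 and in no other (0.00913%). The E-box CANNTG, which myogenic factors such as Myod1 bind, reads the same on both strands. It was absent from these letters of Myh1 and Myh2, occurred 2 times in Myh4 and 1 time in Myh8, and was in 66.2% of all promoters. A match is a description of the letters and no evidence of binding.

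The genes also share coding sequence, which bears on every value below, because the authors divided reads that fit several transcripts among them by estimation. Of the 31-base words of the main Myh1 transcript (Myh1-202), 28.4% also occurred in Myh2-201 and 19.4% in Myh4-201. The share of words found in any other heavy chain transcript of the set was 40.2% for Myh1, 38.9% for Myh2, 30.4% for Myh4, 32.5% for Myh8, 13.9% for Myh13-203, and 10.8% for Myh3. The short transcript Myh13-204, which held 62.0% of the Myh13 value, shared more. Of its words 21.5% occurred in Myh3-201, 14.6% in Myh1-202, and 9.56% in Myh8-201. The longest run common to Myh1, Myh2, and Myh4 had 140 bases. It is shown as an example of a stretch whose reads cannot be told apart by gene:
Myh1-202, Myh2-201, and Myh4-201: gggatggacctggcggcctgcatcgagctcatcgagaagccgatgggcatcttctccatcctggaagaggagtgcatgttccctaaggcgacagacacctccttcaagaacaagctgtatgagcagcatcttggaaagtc
It is coding sequence that spans the junction of exons 14 and 15 of 39 in each gene. In Myh4 the parts lie at chr11:67246503-67246541 and chr11:67248446-67248546, in Myh1 at chr11:67207552-67207590 and chr11:67208853-67208953, and in Myh2 at chr11:67180907-67180945 and chr11:67181035-67181135.

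**Figure D1:**
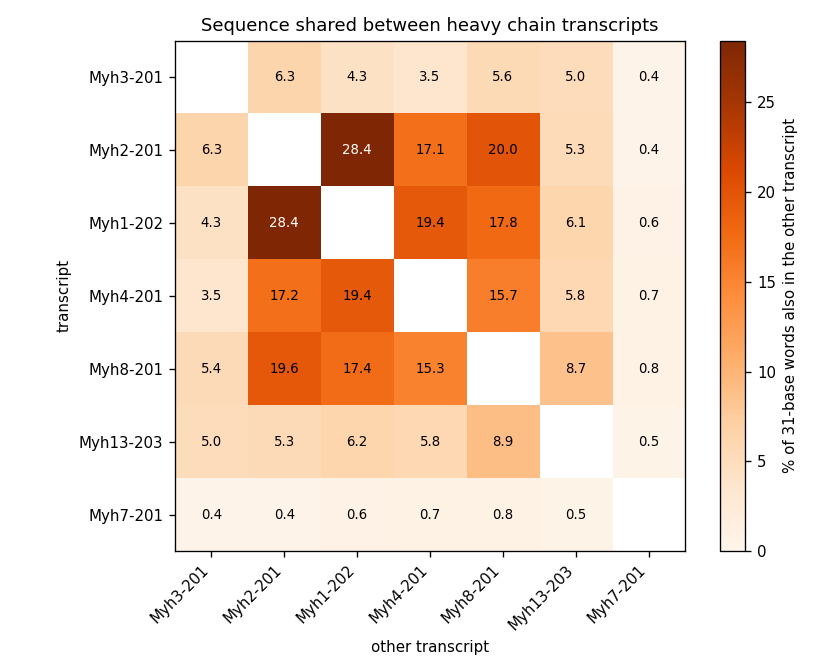
Heat map of the percentage of 31-base words of each heavy chain transcript (rows) that also occur in another (columns). Between transcripts of different genes, Myh1-202 holds the most words of another, 28.4% of its words with Myh2-201, and Myh7-201 shares under 1% with each of the others.

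Values are given as TPM, a transcript level per length and per sequencing depth, on the scale to which the authors had normalized the samples. From the steps of the low values, the depth came to between 10500000 and 32700000 reads (median 14600000). At this depth 1 read on a transcript of 6000 bases is worth 0.00561 to 0.0198 TPM, which describes counting error only. Markers of skeletal muscle, chosen as not specific to a fibre type, were present in every sample (10 of 10, summed level 1572 to 10328 TPM). Their independence of fibre type was not tested. Epidermis (5 of 5 markers, 4337 to 8733 TPM), hair follicle (5 of 5, 489.7 to 3258 TPM), and fibroblast (5 of 5, 401 to 1791 TPM) markers were also present, whereas heart muscle markers (3 of 3, which include Myh6) summed to 0.889 to 2.19 TPM. Fewer muscle fibres in a punch and less heavy chain RNA per fibre cannot be told apart in such samples.

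The whisker pad was a fast muscle by these transcripts. Myh4 was the highest heavy chain in 18 of 18 samples, with a median of 971 TPM and a range of 247 to 1519 TPM, and ranked 154 among all genes by mean value. Myh1 followed with a median of 232 TPM (45.9 to 531), and was above Myh2 in 18 of 18 samples. Myh4 and Myh1 together made up 97.6% to 99.8% of the summed value of the 7 genes. The Myh4 value was 2.02 to 7.71 times the Myh1 value of the same sample, and the ranges of both genes overlapped across samples.

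The other 5 genes were low. Myh2 had a median of 4.28 TPM (0.199 to 31.5) and was above Myh8 in 17 of 18 samples. Myh8 had a median of 0.637 TPM (0.155 to 6.28) and was above Myh13 in 16 of 18 samples. Myh13, whose usual place is the eye and larynx muscles, had a median of 0.481 TPM (0.0278 to 4.14) and was above Myh3 in 17 of 18 samples. Myh3 had a median of 0.150 TPM (0 to 1.12) and Myh7 a median of 0.105 TPM (0.0317 to 0.501). The last 2 did not differ in order, with Myh3 above Myh7 in 9 of 18 samples.

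Transcripts differed in how they carried these levels. Myh4 was read from 1 transcript, Myh4-201, at over 99.9% of the gene's value. Myh1 was divided between Myh1-202 (66.6%) and Myh1-203 (32.2%), and Myh2 among Myh2-201 (70.1%), Myh2-203 (22.3%), and the intron-holding Myh2-202 (7.57%). Myh3 came from Myh3-201 (61.5%) and Myh3-203 (38.5%), and Myh8 from Myh8-201 (90.7%) and the intron-holding Myh8-204 (7.51%). The low Myh13 value was largely that of a short transcript, Myh13-204 (668 bases, 62.0%), beside the full-length Myh13-203 (33.6%), while Myh13-201 held 4.39%. Protein-coding transcripts held only 1.66% of the Myh7 value and at most 0.0166 TPM. The rest of Myh7 belonged to intron-holding transcripts (Myh7-202, 67.3%, and Myh7-206, 31%). A slow heavy chain message was thus near the level of a single read in these samples.

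**Figure D2:**
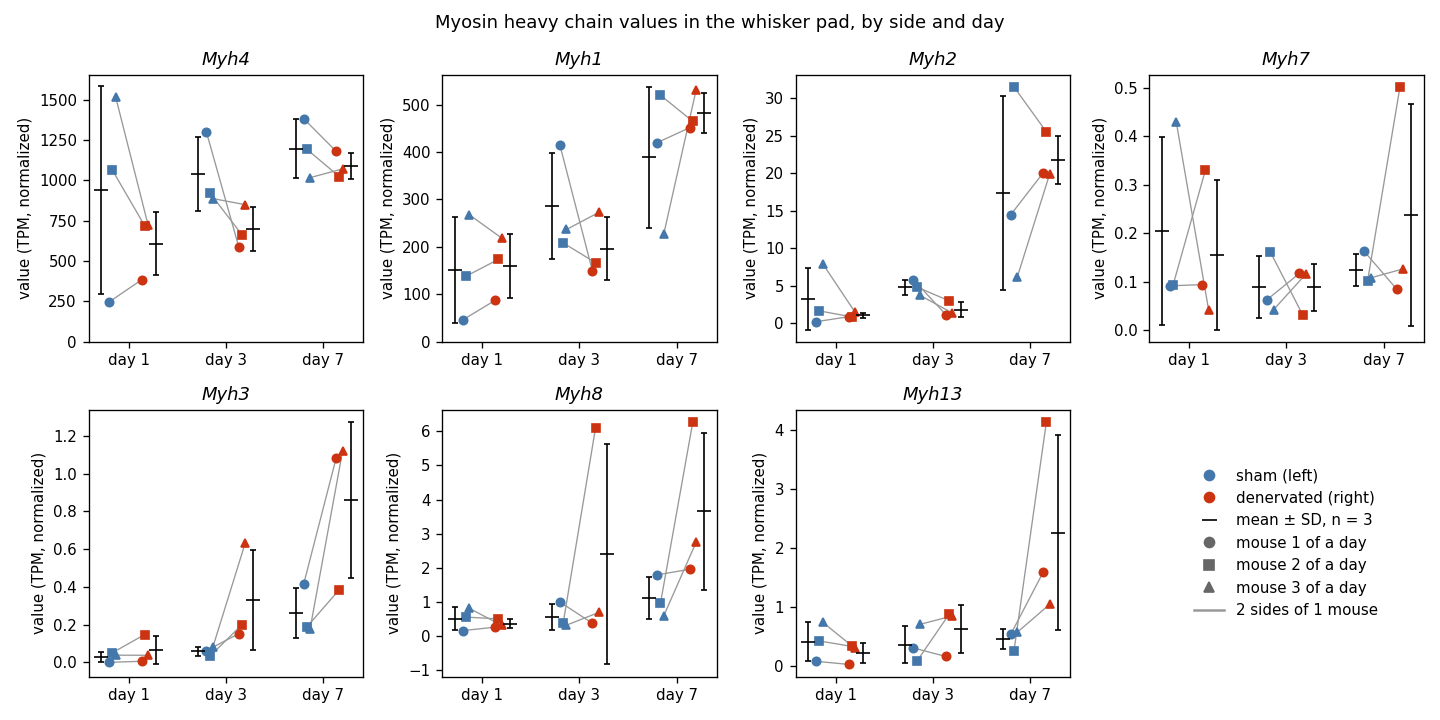
Normalized TPM of each heavy chain gene on the sham (left) and denervated (right) side at days 1, 3, and 7. Lines join the 2 sides of a mouse and black marks give the mean ± SD of 3 mice. Myh8 and Myh13 reach 6.28 and 4.14 TPM on the denervated side of the same day 7 mouse, and Myh3 stays at or below 0.415 TPM on the sham side. At 3.52 TPM, the short transcript Myh13-204 held most of that Myh13 value.

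To ask which heavy chains differed between the denervated and the sham side, each gene was compared at each day with limma on log2(TPM + 0.5), among all genes with at least 1 TPM in at least 47% of the samples compared. Myh1, Myh2, and Myh4 could be tested at each day, and Myh8 and Myh13 in addition at day 7. Myh13 passed this filter at day 7 only through its denervated samples, Myh8 through these and 1 sham sample, and Myh3 and Myh7 never passed. None of the members was called at any day (0 of 3, 0 of 3, and 0 of 5, Benjamini-Hochberg adjusted p under 0.05). Among all genes 0% were called at day 1 (0 of 14776, with 634 at an unadjusted p under 0.05), 1.45% at day 3 (217 of 14943), and 1.53% at day 7 (230 of 15081). Over all days 0 of 3 members and 3.10% of genes (457 of 14757) were called. Pairing the sides of each mouse in a block also gave 0 called members in each of these comparisons.

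Myh4 was lower on the denervated side in 7 of 9 mice. At day 1 it was 384, 718, and 725 TPM in denervated samples and 247, 1064, and 1519 TPM in the sham samples of the same mice. The sham side thus spanned the denervated values, with 1 mouse higher and 2 lower after denervation. At day 3 Myh4 was 587, 663, and 850 TPM against 1301, 924, and 887 TPM, and the groups did not overlap. This was also so for 21.5% of all genes tested at day 3, against 9.56% at day 1 and 17.6% at day 7. The log2 difference at day 3 was -0.56 (SE 0.21, limma adjusted p = 0.283), and without mouse 1 it was -0.27. At day 7 the values were 1181, 1024, and 1072 TPM against 1383, 1193, and 1017 TPM, and the groups overlapped (log2 difference -0.12, SE 0.15, limma adjusted p = 0.788). Over the 9 mice the mean log2 difference of Myh4 was -0.34 ± 0.56 (SD), which did not differ from 0 beyond the spread (exact two-sided sign-flip p = 0.113). The 95% confidence interval of limma over all days ran from -0.89 to 0.21 in the unpaired fit. With the sides paired by mouse it ran from -0.70 to 0.025. Without mouse 1 of day 1, in which Myh4 was higher on the denervated side, the mean log2 difference was -0.46 (exact sign-flip p = 0.0234). That mouse opposed the mean most, with a difference of 0.64. Leaving out mouse 1 of day 3 (-1.15) or mouse 3 of day 1 (-1.07) would instead move the mean toward 0.

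Myh1, the next fastest heavy chain, had no common direction. At day 1 it was 87.2, 174, and 219 TPM in denervated and 45.9, 138, and 268 TPM in sham samples. At day 3 it was 150, 167, and 273 TPM against 414, 208, and 237 TPM. The day 7 values were 451, 464, and 531 TPM against 420, 520, and 226 TPM, so that the denervated samples lay close together and the sham samples did not. The mean log2 difference over 9 mice was 0.06 ± 0.78 (SD), with 5 mice higher and 4 lower (exact sign-flip p = 0.852). It was -0.05 without mouse 1 of day 1 and -0.09 without mouse 3 of day 7.

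Myh2, the heavy chain of oxidative fast fibres, was at most 7.94 TPM at days 1 and 3 and at least 14.5 TPM in 5 of 6 samples of day 7. At day 3 it was 1.13, 2.98, and 1.35 TPM in denervated and 5.80, 4.83, and 3.72 TPM in sham samples, lower in 3 of 3 mice. The groups did not overlap, as in 21.5% of all genes tested at day 3. The log2 difference was -1.25 (SE 0.32), and it was not called among all genes (limma adjusted p = 0.150, and 0.131 when the sides were paired by mouse). At day 1 Myh2 ran from 0.837 to 1.45 TPM in denervated and from 0.199 to 7.94 TPM in sham samples. At day 7 it was 20.1, 25.5, and 19.9 TPM against 14.5, 31.5, and 6.14 TPM, with a log2 difference of 0.59 (SE 0.52, limma adjusted p = 0.710). This value rested on single mice, being 0.079 without mouse 3 and 1.04 without mouse 2. Over 9 mice the mean log2 difference was -0.42 ± 1.26 (SD, exact sign-flip p = 0.336), and -0.68 to -0.21 when single mice were left out. The samples in which Myh2 was high were also those with high muscle markers, as described below.

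Myh3, the embryonic heavy chain, was higher on the denervated side in 8 of 9 mice. It stood at 0.00553, 0.147, and 0.0374 TPM in denervated samples of day 1, where the sham samples held 0, 0.0509, and 0.0380 TPM. These are values of about 12 reads or fewer, and the limit set by a count of 0 is 3 reads. At day 3 it was 0.152, 0.200, and 0.634 TPM against 0.0617, 0.0311, and 0.0810 TPM, and the groups did not overlap. This was also so for 21.5% of the genes tested at day 3, which do not include Myh3. The day 7 values were 1.08, 0.385, and 1.12 TPM against 0.415, 0.188, and 0.179 TPM. Here each mouse was higher on the denervated side, though the lowest denervated value was under the highest sham value. The mean log2 difference was 0.08 ± 0.13 at day 1, 0.53 ± 0.39 at day 3, and 0.80 ± 0.45 at day 7 (SD, n = 3). Over 9 mice it was 0.47 ± 0.44 (exact sign-flip p = 0.00781, unadjusted). Of the 14757 genes that passed the filter over all days, 16.2% had such a p under 0.05. Since the pseudocount of 0.5 is above most Myh3 values, these log2 differences understate its change. Even the highest Myh3 value, 1.12 TPM, was 0.0688% of the summed heavy chain value of its sample.

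Myh8, the perinatal heavy chain, differed from mouse to mouse. At day 3 it was 0.371, 6.11, and 0.689 TPM in denervated and 0.994, 0.378, and 0.314 TPM in sham samples, so that 1 denervated sample stood far above the rest. At day 7 it was 1.95, 6.28, and 2.75 TPM against 1.79, 0.955, and 0.584 TPM, higher in 3 of 3 mice. The groups did not overlap, as in 17.6% of all genes tested at day 7. The log2 difference at day 7 was 1.30 (SE 0.45) with a limma adjusted p of 0.303, and it was 0.84 without mouse 2. At day 1 the values ran from 0.256 to 0.5 TPM in denervated and from 0.155 to 0.810 TPM in sham samples. Over 9 mice the mean log2 difference was 0.67 ± 1.29 (SD), and 6 mice were higher (exact sign-flip p = 0.176). Without mouse 2 of day 3 that mean was 0.39.

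Myh13 was lower on the denervated side in 3 of 3 mice at day 1 and higher in 3 of 3 at day 7. The day 1 values were 0.0278, 0.333, and 0.298 TPM against 0.0794, 0.425, and 0.742 TPM, which are at most about 17 reads. At day 3 they were 0.162, 0.880, and 0.850 TPM against 0.306, 0.0781, and 0.707 TPM, with wide overlap. In estimated reads, at unequal depth, this was 3.01, 34.5, and 61.8 against 3.21, 4.94, and 8.10. At day 7 they were 1.59, 4.14, and 1.05 TPM against 0.538, 0.260, and 0.572 TPM, with no overlap, as in 17.6% of all genes tested. The log2 difference was 1.38 (SE 0.44, limma adjusted p = 0.268), for a gene tested there only through its denervated samples. Over 9 mice the mean log2 difference was 0.48 ± 1.01 (SD, exact sign-flip p = 0.191). Both rested in part on mouse 2 of day 7, without which they were 0.77 and 0.22. Myh8 and Myh13 had their highest TPM in the same sample, the denervated side of mouse 2 of day 7. Of the 4.14 TPM of Myh13 there, 3.52 TPM was the short transcript Myh13-204. In estimated reads Myh13 was highest on the denervated side of mouse 1 of day 7, at 75.9 against 65.8 in mouse 2. Over the 18 samples the log2 levels of Myh8 and Myh13 had a Pearson r of 0.78. This is a description, since all points share the 9 mice and the genes share sequence. Of the words of Myh8-201, 8.66% occur in Myh13-203, and of those of Myh13-204, 9.56% occur in Myh8-201.

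Myh7 ran from 0.0317 to 0.501 TPM with no side in common. Its mean log2 difference over 9 mice was 0.03 ± 0.44 (SD, exact sign-flip p = 0.816), at values of about 1 to 10 reads. A difference in the slow heavy chain was therefore not detectable at this depth.

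**Figure D3:**
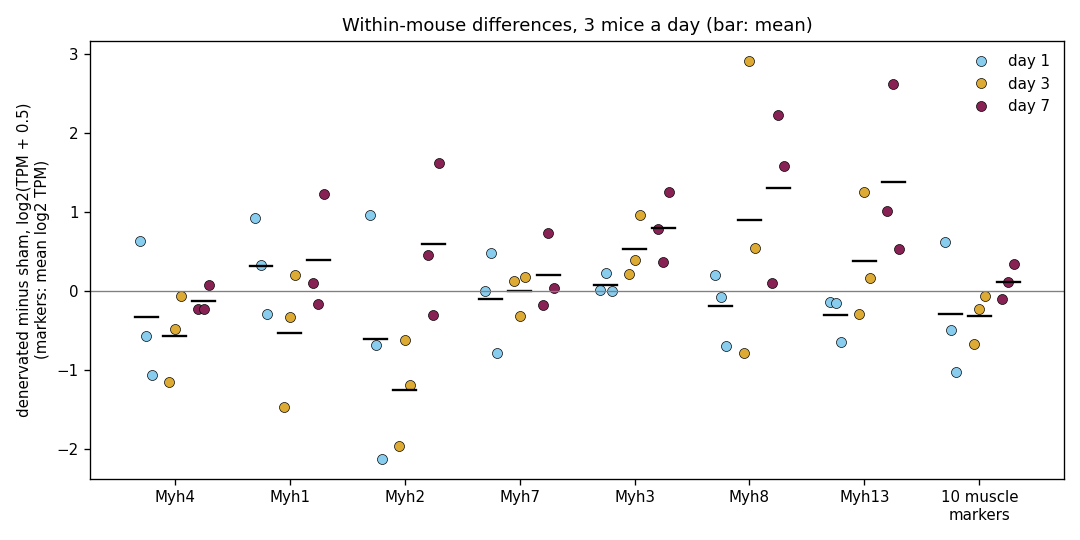
Within-mouse difference, denervated minus sham, on the log2(TPM + 0.5) scale for each heavy chain, and of the mean log2 TPM of 10 muscle markers. Points are mice and bars are means of 3 mice. The Myh3 means rise from 0.08 at day 1 to 0.80 at day 7, while the Myh4 means are -0.33, -0.56, and -0.12.

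Whether these differences changed between days was tested as an interaction for Myh1, Myh2, and Myh4, with all 18 samples. None was called (0 of 3 for each pair of days). Among all genes 0.122% were called between days 3 and 1 (18 of 14757), 0.163% between days 7 and 1 (24), and 0% between days 7 and 3 (0, with 1013 at an unadjusted p under 0.05). The largest such difference among the 3 was that of Myh2 between days 7 and 3, at 1.85 on the log2 scale (SE 0.97, limma adjusted p = 0.755). The limma comparison of each single day has 3 mice, and a sign-flip test over 3 mice cannot give a p below 0.25.

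A share of the summed value of the 7 genes compares the heavy chains within a sample and does not depend on how the sample was scaled. The share of a minor gene still moves against the sum, which is mostly Myh4 and Myh1. That sum was lower on the denervated side in 7 of 9 mice. By share, Myh4 was lower on the denervated side in 8 of 9 mice and Myh1 was higher in 8 of 9, with mouse 1 of day 3 as the exception for both. At day 1 the Myh4 share was 81.3%, 80.3%, and 76.7% in denervated and 84.2%, 88.3%, and 84.5% in sham samples, and the groups did not overlap. Gene values did not overlap for 9.56% of all genes tested at day 1, and shares have no such percentage. The Myh1 share was 18.5%, 19.4%, and 23.1% against 15.7%, 11.5%, and 14.9%. At day 3 the mean shares were close, 78.0% ± 2.18 and 78.4% ± 2.84 for Myh4 and 21.4% ± 2.41 and 21.1% ± 2.87 for Myh1 (SD, n = 3). At day 7 the Myh4 share was 71.3%, 67.1%, and 65.9% against 76.0%, 68.3%, and 81.3%, and the Myh1 share was 27.2%, 30.5%, and 32.6% against 23.1%, 29.8%, and 18.1%. The denervated and sham groups overlapped at day 7, although each mouse moved the same way.

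Over 9 mice the Myh1 share was higher by 4.37 percentage points ± 5.27 (SD, exact sign-flip p = 0.0313), and the Myh4 share differed by -4.62 points ± 5.41 (p = 0.0273, exact). The 2 shares are close to mirror images and count as 1 observation. These p values are unadjusted, and both lost the threshold when single mice were left out. Without mouse 2 or 3 of day 1 or mouse 1 or 3 of day 7 the exact sign-flip p was 0.0625 for Myh1 and 0.0547 for Myh4, and without mouse 3 of day 3 it was 0.0547 for Myh1. With the median over mice in place of the mean the differences were 3.25 points (p = 0.219, exact) and -3.15 points (p = 0.219, exact).

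**Figure D4:**
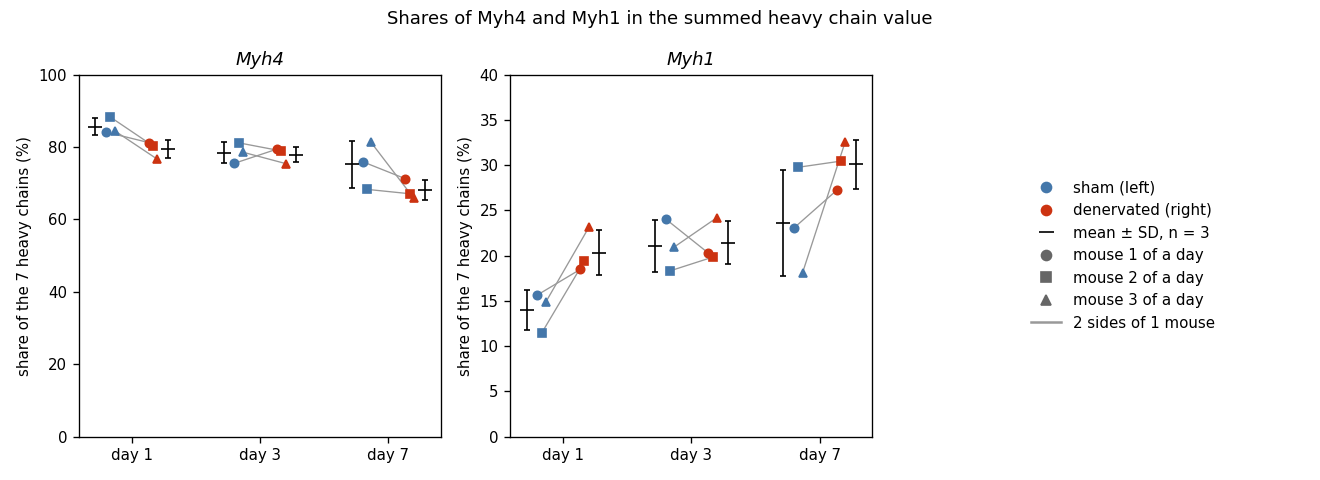
Share of Myh4 (axis from 0 to 100%) and of Myh1 (axis from 0 to 40%) in the summed value of the 7 heavy chains, by side and day, with lines joining the 2 sides of a mouse and black marks for the mean ± SD of 3 mice. In 8 of 9 mice the Myh4 line falls and the Myh1 line rises from sham to denervated.

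Of the minor heavy chains, the Myh3 share was higher on the denervated side in 9 of 9 mice, by 0.0238 points ± 0.0200 (exact sign-flip p = 0.00391, the smallest that 9 mice allow). At day 1 the direction rested on few reads, about 1 against 0 in mouse 1 and about 3 against 3 in mouse 3. In mouse 3 the Myh3 value was lower on the denervated side (0.0374 against 0.0380 TPM). Its share was higher because the heavy chain sum was also lower (946 against 1797 TPM). At day 7 the Myh3 share was 0.0653%, 0.0253%, and 0.0688% in denervated and 0.0228%, 0.0108%, and 0.0143% in sham samples, with no overlap. Gene values did not overlap for 17.6% of all genes tested at day 7, which do not include Myh3. The Myh8 share was higher in 7 of 9 mice, by 0.135 points ± 0.240 (exact sign-flip p = 0.0469). At day 7 it was 0.118% to 0.412% against 0.0467% to 0.0984%. Without mouse 2 of day 3, in which the share was 0.728% after denervation, the mean of the Myh8 share difference was 0.0655 points (p = 0.0938, exact), and the exact sign-flip p was 0.0547 to 0.0938 without mouse 1 or 2 of day 1, mouse 3 of day 3, or any mouse of day 7. The Myh13 share was higher in 7 of 9 mice (0.0476 points ± 0.0871, exact sign-flip p = 0.105), and without mouse 1 of day 1 that p was 0.0391 with a mean of 0.0562 points, and without mouse 2 of day 7 the mean was 0.0214 points. The Myh2 share (0.0373 points ± 0.335, exact sign-flip p = 0.766) and the Myh7 share (0.00324 points ± 0.0170, p = 0.578, exact) had no direction beyond the spread.

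Shares also differed between days on the sham side, in different mice. The sham Myh4 share was 85.7% ± 2.30 at day 1, 78.4% ± 2.84 at day 3, and 75.2% ± 6.52 at day 7 (SD, n = 3), and the sham Myh1 share was 14% ± 2.24, 21.1% ± 2.87, and 23.6% ± 5.86. The sham Myh2 share was 0.215% ± 0.199, 0.364% ± 0.0531, and 1.03% ± 0.689. On the denervated side the day 7 Myh4 share was 68.1% ± 2.83 and the Myh2 share 1.37% ± 0.264. Days were sampled in different animals, and a day, its mice, and its punches cannot be told apart.

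The adult fast heavy chains were high in the samples with high muscle markers. The summed heavy chain value ran from 293 to 1820 TPM over the samples, and the geometric mean of the 10 muscle markers from 84.6 to 540.3 TPM. The log2 levels of Myh4 and of the markers had a Pearson r of 0.95 over the 18 samples, those of Myh1 and the markers 0.91, and those of Myh2 and the markers 0.86, given as descriptions because both come from the same punches. The r was 0.57 for Myh8, 0.61 for Myh13, 0.52 for Myh3, and 0.31 for Myh7. Levels of Myh1 and Myh2 had an r of 0.88, and those of Myh1 and Myh4 of 0.86.

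Within mice, the marker level differed between the sides by -1.02 to 0.62 on the log2 scale, and was lower on the denervated side in 6 of 9. The summed heavy chain value was lower in 7 of 9 mice (-0.25 ± 0.59, SD). Relative to the markers the sum differed by -0.09 ± 0.22 on the log2 scale, with 5 mice higher and 4 lower. With the median marker in place of the geometric mean it was -0.19 ± 0.24, with 3 mice higher and 6 lower, among them all 3 of day 7. For Myh4 alone the difference relative to the markers was -0.17 ± 0.17, with 8 of 9 mice lower, and its exact sign-flip p with this rescaling was 0.0117, unadjusted. Without the rescaling, 16.2% of the 14757 genes tested over all days had such a p under 0.05. Relative to the markers Myh1 differed by 0.23 ± 0.55 with 6 of 9 higher, and Myh3 by 0.64 ± 0.52 with 8 of 9 higher. The markers did not move as 1 group at day 7, where Neb (the thin filament ruler nebulin) was higher on the denervated side (809 ± 84.3 against 366 ± 39.4 TPM, limma adjusted p = 0.0117) and Ckm (muscle creatine kinase) lower (1080.5 ± 68.5 against 2347 ± 222 TPM, limma adjusted p = 0.0100). The markers were also spread at day 3, where none was called. Their log2 differences there ran from -1.66 (Tcap) to 0.46 (Neb), with 4 higher and 6 lower. The part of muscle content in the values of Myh4 was not tested beyond this rescaling.

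**Figure D5:**
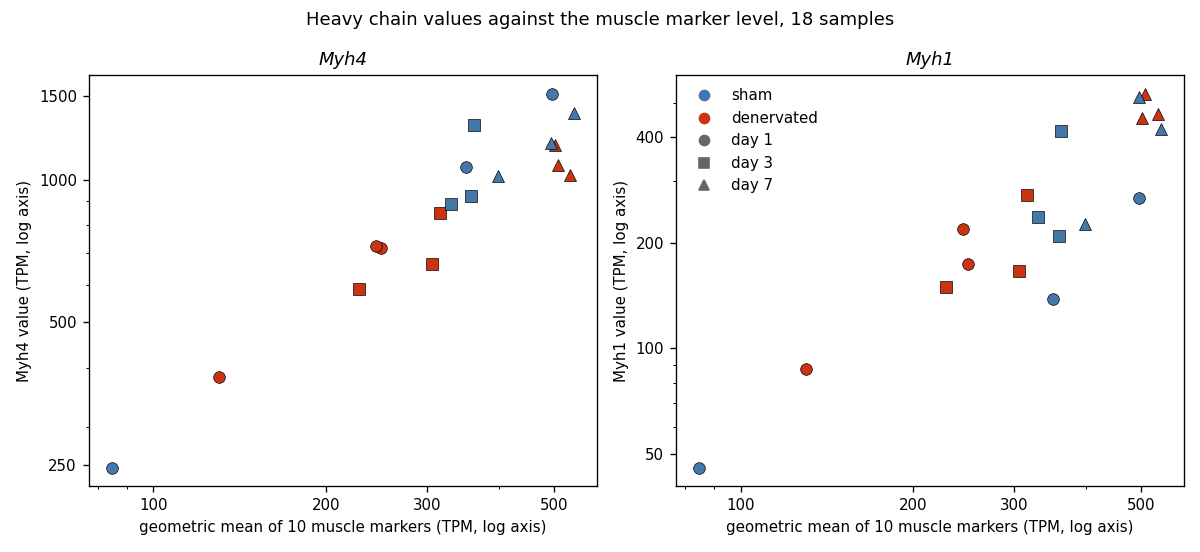
Values of Myh4 and Myh1 (log axes, TPM) against the geometric mean of 10 skeletal muscle markers in 18 samples. Both rise with the markers from the sham sample of mouse 1 of day 1, which has the lowest marker level at 84.6 TPM, to the day 7 samples at 399 to 540.3 TPM.

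The division of Myh1 between its transcripts was also set out by side. Myh1-203, which starts upstream of Myh1-202 with 1 more exon, held 17.1% to 75.0% of the Myh1 value. Its share of Myh1 was lower on the denervated side in 7 of 9 mice and higher in 2. The mean difference over the 9 mice was -14.8 percentage points (SD 13.7), with a range of -37.2 to 4.26. At day 7 it was 21.2%, 19.6%, and 19.3% in denervated and 26.6%, 45.3%, and 56.5% in sham samples. Since 99.9% of the 31-base words of Myh1-202 are also in Myh1-203, this division rests on reads from the 5' end, and its difference between the sides was not tested.

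The genes whose level was most like that of a member over the 18 samples were found by Pearson r of log2 values among the 14754 other genes tested over all days. For Myh4 they were Eef1a2 (r = 0.97), the translation elongation factor of adult muscle and nerve, Fem1a (0.96), and Gyg (0.95), the glycogen primer glycogenin. For Myh1 they were Tpm2 (0.94), a tropomyosin, Myoz2 (0.94), a Z-disc protein, and Atp6v0e2 (0.93). For Myh2 they were Zfp106 (0.94), Tmtc1 (0.94), and Asph (0.93). For Myh3 they were Ccdc141 (0.89), Myl4 (0.89), the embryonic and atrial light chain, and Itga9 (0.88). For Myh8 they were Zfp27 (0.87), Mettl11b (0.85), and Fry (0.85), and for Myh13 Fry (0.87), Tceal5 (0.86), and Hhipl1 (0.84). For Myh7, whose values are a few reads, no gene passed 0.68 (Arid5a and Hint2 0.68, Mfsd3 0.65).

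Among the partners of developmental heavy chains (Myl4, Actc1, Tnnt2, Ncam1, Chrng, Mymk, and Mymx), 4 of 7 tested rose at day 3 and 4 of 6 at day 7, while none of 4 was called at day 1. Chrng, Mymk, and Mymx at day 3 and Mymk at day 7 passed the filter only through their denervated samples, and Chrng at day 7 through these and 1 sham sample, so that a difference was built into their being tested. Of the 4 genes tested at every day (Myl4, Actc1, Tnnt2, and Ncam1), 1 rose at day 3 and 2 at day 7. Chrng (the fetal subunit of the acetylcholine receptor) was 48.1 ± 21.8 TPM in denervated and 0.353 ± 0.0886 TPM in sham samples at day 3 (log2 difference 5.71, limma adjusted p = 0.00225). Myl4 rose at day 7 (79.4 ± 10.2 against 16.9 ± 5.32 TPM, limma adjusted p = 0.00707). Mymk (the fusion factor myomaker) was 7.50 ± 1.58 against 0.482 ± 0.402 TPM at day 7 (limma adjusted p = 0.00781), and Ncam1 (a cell adhesion molecule of immature and denervated fibres) 90.5 ± 28.6 against 7.61 ± 5.73 TPM (limma adjusted p = 0.0147). The gene called at day 3 besides Chrng, Mymk, and Ncam1 was Mymx (myomixer, limma adjusted p = 0.0458), which is named after its values were seen. In the fit paired by mouse Ncam1 and Mymx were not called at day 3, while Actc1 (cardiac actin) fell at days 3 and 7 (limma adjusted p = 0.0393 and 0.00802).

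Of the fast fibre partners (Tnnt3, Tnni2, Tnnc2, Mylpf, Myl1, Atp2a1, Actn3, Pvalb, and Casq1), 1 of 9 rose at days 3 and 7 and none fell. It was Actn3, the fast alpha-actinin, at 673 ± 315 against 109 ± 42.0 TPM at day 3 (log2 difference 2.61, limma adjusted p = 0.0475) and 879 ± 65.6 against 286 ± 69.8 TPM at day 7 (1.64, limma adjusted p = 0.00997). The median log2 difference of the list was -0.14, 0.12, and -0.25 at days 1, 3, and 7. Pvalb (parvalbumin) was called lower at day 7 in the paired fit (limma adjusted p = 0.0379). Of the slow fibre partners, 1 of 7 tested rose at day 7, Tnnt1 (slow troponin T, 55.8 ± 7.76 against 16.9 ± 4.07 TPM, limma adjusted p = 0.0109), and 0 of 6 at days 1 and 3. Casq2, the calsequestrin of slow and heart muscle, fell over all days (log2 difference -0.65, limma adjusted p = 0.0106). The median of the slow list was 0.05, 0.06, and 0.31.

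Of the thick filament and myosin assembly genes, 0 of 14 was called at day 1, 1 rose at day 3, and 2 rose at day 7. Myom3 (an M-band protein) was 160 ± 42.7 against 42.9 ± 14.1 TPM at day 3 (log2 difference 1.90, limma adjusted p = 0.0452) and 240 ± 11.6 against 83.4 ± 20 TPM at day 7 (1.55, limma adjusted p = 0.0115). Mybph (myosin binding protein H) was 328 ± 32.4 against 121 ± 22.9 TPM at day 7 (1.44, limma adjusted p = 0.0117). The median log2 difference of the list was -0.36, 0.17, and 0.22. In the paired fit 3 rose at day 3, Mybph (limma adjusted p = 0.00554), Myom3 (0.00670), and Trim63 (the thick filament ubiquitin ligase MuRF1, 0.0331), and Mybpc2 fell at day 7 (0.0491). The chaperone Unc45b, which folds myosin heads, was not called (log2 difference 0.40 at day 3, limma adjusted p = 0.455).

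Of the 18 regulators of fibre type tested at each day, 0 was called at day 1 and 2 rose at days 3 and 7, with medians of -0.24, 0.13, and 0.19. They were Hdac4 (a histone deacetylase that acts on MEF2 factors), at 19.1 ± 2.27 against 8.22 ± 0.159 TPM at day 7 (limma adjusted p = 0.00891), and Mef2a, at 66.6 ± 11.4 against 27.0 ± 2.86 TPM at day 3 (limma adjusted p = 0.0168). In the fit paired by mouse 3 rose at day 7, where Mef2c (a MEF2 factor of muscle) was 84.4 ± 13.4 against 49.4 ± 8.41 TPM (limma adjusted p = 0.0261, and 0.124 unpaired). Tbx15, a regulator of glycolytic fibres, was not called (day 7 log2 difference -0.26, limma adjusted p = 0.428). Of the myogenic factors and satellite cell markers, 0 of 4 tested was called at day 1, 4 of 4 rose at day 3 and 3 of 4 at day 7. Myog was 181 ± 17.1 against 4.65 ± 2.15 TPM at day 3 (log2 difference 5.21, limma adjusted p = 0.000887), and Myf6 212 ± 19.6 against 41.0 ± 1.79 TPM at day 7 (limma adjusted p = 0.00213). Myod1 was 79.3 ± 37.4 against 4.58 ± 0.996 TPM at day 3 (limma adjusted p = 0.00722), and Cdh15 (M-cadherin) 12 ± 4.30 against 2.04 ± 0.167 TPM (limma adjusted p = 0.0117). Pax7, the marker of satellite cells, was too low to test (0.0463 to 0.285 TPM).

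Of the other heavy chains, 4 of 7 could be tested, the nonmuscle Myh9, Myh10, and Myh14 and the smooth muscle Myh11, and none was called at any day. Their median log2 difference was -0.10, -0.14, and -0.03 at days 1, 3, and 7. The heart heavy chain Myh6 (at most 0.316 TPM), Myh7b (at most 0.834 TPM), and Myh15 (at most 0.0307 TPM) were too low to test.

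Among markers of other cell types, the summed macrophage level (5 of 5 markers) was 83.4 to 110 TPM in denervated and 41.4 to 97.2 TPM in sham samples at day 3, and 71.1 to 126 against 39.7 to 79.7 TPM at day 7. The Schwann cell sum (4 of 4) was 150 to 164 TPM in denervated and 206 to 360 TPM in sham samples at day 7. It was lower in 3 of 3 mice. The hair follicle sum (5 of 5) was 489.7 to 1547 TPM in denervated and 1754 to 3258 TPM in sham samples at day 3, with no overlap. Myh2 and Myh4 were also lower there without overlap. Values of 21.5% of all genes tested at day 3 did not overlap, counting both directions, and marker sums have no such percentage. The smooth muscle sum (4 of 4) was lower on the denervated side in 3 of 3 mice at days 3 and 7 (121 to 149 against 127 to 244 TPM, and 140 to 173 against 159 to 257 TPM), and the epidermis and fibroblast sums were higher in 3 of 3 mice at day 7. The part of these markers in the heavy chain values was not tested.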

How the data were processed

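RNA of skin and muscle punches was measured in 18 samples. The authors base-called reads with bcl2fastq2 2.17.1.14, removed duplicates with ParDRe, trimmed them with Fastp, pseudoaligned them to Ensembl cDNA of build GRCm38 with Kallisto 0.43.1, and ran Sleuth. As deposited, the values (a signal) are TPM, which the authors had scaled between samples (sums of 833186 to 1143839). Columns of day 7 were matched to samples by library number. By identifier 98.5% of 113194 transcripts were matched to GENCODE M21, and values were summed per gene. Depth was estimated from low values, of which 67.5% to 81.9% lay near whole multiples of 1 read, where 20% would if spread evenly.

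Fits of log2(TPM + 0.5) were made with limma 3.58.1 (R 4.3.3) with its trend option, for genes with at least 1 TPM in at least 47% of samples, within each day, over all days with the day as a term, and as interactions. P values were adjusted by Benjamini-Hochberg, with 0.05 as the threshold. Within-mouse differences were tested with exact two-sided sign-flip tests over 9 mice, unadjusted. By the labels the 2 sides pair by mouse. Residuals of the sides of a mouse correlated at 0.131 to 0.511 over genes. For sides of different mice of a day the correlations ran from -0.461 to 0.236, so the ranges overlapped. P values of the sign-flip tests and of the paired fits measure the spread of within-mouse differences. Those of the main limma fits measure the spread between samples and treat the 2 sides of a mouse as independent. Tests were tried on simulated data. Promoters came from RefSeq, matched by symbol for 7 of 7 members. Python 3.11.15 with numpy 2.4.6, pandas 2.3.3, and scipy 1.17.1 did the rest.

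All 7 members were named, with the 3 genes most like each, up to 4 called genes of each list with the smallest adjusted p, and transcripts with at least 5% of a gene's value in a group. Mymx, Unc45b, Tbx15, Pax7, and genes called only in the paired fit were named after their values were seen. Members and lists were chosen with earlier results of these data known. Alternatives were pseudocounts of 0.1 and 1, a value above 0 or of at least 5, median-of-ratios, muscle marker and equal-sum rescaling, the mouse as a replicate block, no trend, protein-coding transcripts, all 18 samples, a wider sum, log2 shares (with 0.001 added), the median over mice, and each mouse left out. The tests of Sleuth were not used here. The result of 1 gene is not reported here.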

Additional observations from a re-analysis of the deposited data

Results flagged for a closer look

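Myh13 was the only member whose 3 mice moved one way at 1 day and the opposite way at another. Its mean log2 difference was -0.31 ± 0.29 (SD, n = 3) at day 1 and 1.38 ± 1.09 at day 7, a gap of 1.69. Without mouse 2 the day 7 value was 0.77. The difference between these days was not tested, because Myh13 did not pass the filter at day 1, and its day 1 values are about 4 to 17 reads. Relative to the muscle markers the day 1 differences were -0.76, 0.34, and 0.38, so that the common direction at day 1 was not present on that scale.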

How the results depend on the processing

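No member was called by limma at any day or over all days (0) under any alternative, the replicate block and each mouse left out included. Between days this held (0) for the alternatives run there, which were both pseudocounts, median-of-ratios and muscle marker rescaling, the replicate block, no trend, and each mouse left out. The number of members with an exact sign-flip p under 0.05 for the log2 difference was 1 (Myh3), 2 with muscle marker rescaling, where Myh4 joined, and 1 to 2 when single mice were left out. Of the 14757 genes tested over all days, which do not include Myh3, 16.2% had such a p in the main setting. For shares the number of members was 4 (Myh1, Myh3, Myh4, and Myh8), 0 with the median over mice, and 1 to 4 when single mice were left out. Among these, Myh1 and Myh4 count as 1 observation. A share is defined for the members only, so no percentage over all genes stands beside this number. The heavy chain sum against the markers was -0.09, -0.19 with the median marker, and -0.11 to -0.03 when single mice were left out (-0.03 without mouse 1 of day 3). Muscle marker rescaling moved the median of all genes by 0.27, 0.29, and -0.07 at days 1, 3, and 7.

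Directions that turned were all of differences that had not passed a test. With muscle marker rescaling the difference between days 7 and 1 was -0.34 for Myh1 and -0.20 for Myh4, where the median of all genes was -0.35. With protein-coding transcripts the log2 difference of Myh7 was -0.0046, its share difference -9.53e-05, and that of Myh2 -0.0011. The Myh2 share difference was -0.19 as log2 shares and -0.070 as a median, and the median for Myh7 was -0.00086.

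With single mice left out, log2 differences ran from -0.82 to 0.035 (Myh4, day 1), -0.22 to -0.073 (Myh4, day 7), -0.029 to 0.67 (Myh1, day 7), and -0.085 to 0.25 (Myh1, over 9 mice, with limma or the sign-flip test), and from -0.053 to 0.14 for Myh7 over 9 mice. Differences between days 3 and 1 ran from -1.40 to 0.14 (Myh2) and -0.60 to 0.25 (Myh4), and those between days 7 and 1 from -0.35 to 0.37 (Myh1) and -0.16 to 0.69 (Myh4). Share differences ran from -0.0496 to 0.0781 points (Myh2) and from -9.3e-06 to 0.00609 (Myh7). The cause of these changes was not tested. Values of a few reads limit Myh3, Myh7, and Myh13.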
